A study of Rattus norvegicus with 10 samples.

Results

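This account covers 10 genes of macrophages and of complement C1q, chosen by name: C1qa, C1qb, C1qc, Csf1r, Tyrobp, Mrc1, Cybb, Lyz2, Lgals3 and Aif1. Probe sets that the platform annotation gave to a single one of these symbols were taken, which found 10 probe sets for 9 of the 10 genes, out of 12783 probe sets that name 1 gene. Mrc1, the mannose receptor, had no such probe set and was not analysed here. Aif1 had a pair of probe sets, 1368558_s_at and 1369489_at, and the other 8 genes had 1 each. All 10 probe sets passed the filter on low signal, a mean log2 signal of at least 7.47.

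The soy group was 5 arrays of whole mammary gland from female SD rats exposed from gestation day 4 until weaning to the purified AIN-93G diet with soy protein isolate as its protein. The casein group was 5 arrays from rats given the same diet with casein. The RNA came from rats at postnatal day 21, and the labels speak of RNA pools with replicate targets made from each, so p-values measure a spread between arrays that may be partly technical. Arrays are named by diet and the number in their label: soy 147, 149, 155, 157 and 159, and casein 6, 7, 10, 18 and 20. Values below are log2 of the MAS5 signal, an array intensity, and are listed in that order of arrays. Whole glands hold fat, ducts, vessels and sometimes muscle and lymph node, and the 10 arrays differed in these. The mean of 10 skeletal muscle markers ran from 5.98 to 13.88 and that of 6 luminal epithelial markers from 6.65 to 10.37. In whole tissue, fewer cells of a type and less RNA per cell cannot be told apart.

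Macrophages are resident phagocytes of the mammary fat pad. In mice they gather around the terminal end buds that lead duct growth, and their survival depends on CSF1 acting through its receptor, Csf1r. C1q, the recognition unit of the classical complement pathway, is assembled from the chains encoded by C1qa, C1qb and C1qc and is made mainly by macrophages and dendritic cells. In the rat assembly GRCr8 the genes of these chains are neighbours on chromosome 5, in the order C1qb, C1qc, C1qa. Lymph nodes lie within the mammary fat pad and hold macrophages of their own, and Cd37, a tetraspanin of leukocytes that is abundant in B cells, served as the lymph node signal.

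Promoter windows are shown for 4 genes that differ in how they behaved over the arrays: C1qa, C1qb and Csf1r, which varied together, and Lyz2, which did not follow them. Each window runs from 250 bases before to 50 bases after the gene's start in RefSeq (GRCr8), read 5′ to 3′ on the gene's strand. Capitals mark GAGGAA and GGAAGT on either strand, purine-rich words with the core recognised by ETS factors such as PU.1, a regulator of macrophage genes. Overlapping matches run together.
C1qa (chr5:154419884-154420183, minus strand): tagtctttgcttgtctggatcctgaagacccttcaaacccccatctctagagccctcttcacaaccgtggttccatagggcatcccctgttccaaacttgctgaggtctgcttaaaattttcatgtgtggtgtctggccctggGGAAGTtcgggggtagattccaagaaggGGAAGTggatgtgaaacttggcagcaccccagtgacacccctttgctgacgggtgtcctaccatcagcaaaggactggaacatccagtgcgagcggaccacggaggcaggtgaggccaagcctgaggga
C1qb (chr5:154407778-154408077, minus strand): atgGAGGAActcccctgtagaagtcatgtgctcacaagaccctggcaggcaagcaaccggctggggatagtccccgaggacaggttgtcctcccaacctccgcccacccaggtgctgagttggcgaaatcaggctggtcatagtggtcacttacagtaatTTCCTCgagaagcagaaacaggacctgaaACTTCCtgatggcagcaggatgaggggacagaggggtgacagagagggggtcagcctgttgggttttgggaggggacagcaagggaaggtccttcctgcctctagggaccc
Csf1r (chr18:56834129-56834428, plus strand): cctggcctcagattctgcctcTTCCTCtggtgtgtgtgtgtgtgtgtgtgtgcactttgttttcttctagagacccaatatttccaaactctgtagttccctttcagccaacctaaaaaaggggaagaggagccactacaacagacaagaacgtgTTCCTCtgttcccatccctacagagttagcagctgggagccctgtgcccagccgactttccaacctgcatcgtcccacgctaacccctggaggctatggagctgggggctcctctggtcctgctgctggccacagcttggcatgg
Lyz2 (chr7:54797962-54798261, minus strand): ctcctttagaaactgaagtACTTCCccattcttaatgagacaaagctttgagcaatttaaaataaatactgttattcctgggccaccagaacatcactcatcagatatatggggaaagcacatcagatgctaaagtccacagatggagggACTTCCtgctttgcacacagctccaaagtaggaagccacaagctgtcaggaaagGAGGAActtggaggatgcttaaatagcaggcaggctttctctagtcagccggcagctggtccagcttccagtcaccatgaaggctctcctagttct
The C1qa window held GGAAGT at positions -107 and -79 from the start, and the Lyz2 window held GAGGAA at -46 and GGAAGT on the other strand at -231 and -100. The promoter table listed 6 of the 10 genes (these 4, Mrc1 and Cybb), and all 6 windows held at least 1 of the words, as did the window of Cd37, which is no member. Among 33469 promoter windows of the same length, 27.6% held GAGGAA, 22.6% held GGAAGT and 42.3% held either. A match is a description of the letters only.

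The question put to the diets was whether soy protein altered the early gland, and none of the 9 genes passed the test. In limma, 0 of 10 member probe sets had an adjusted p under 0.05, where 0% of the 9520 probe sets tested did. Lgals3 alone among the members had an unadjusted p under 0.05 and was higher in soy, against 2.31% of all probe sets that were higher in soy at that level, 2.24% that were lower in soy and 4.55% in either direction. Differences were above 0 for 8 of 10 member probe sets, against 47.3% of all those tested. The members share the same arrays and vary together, so these are not separate pieces of evidence. Soy and casein arrays overlapped for every member probe set, while 0.798% of all probe sets did not overlap. Over the 9 genes, each by its brightest probe set, the median soy minus casein difference was 0.17, against -0.01 over 7151 genes.

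**Figure D1:**
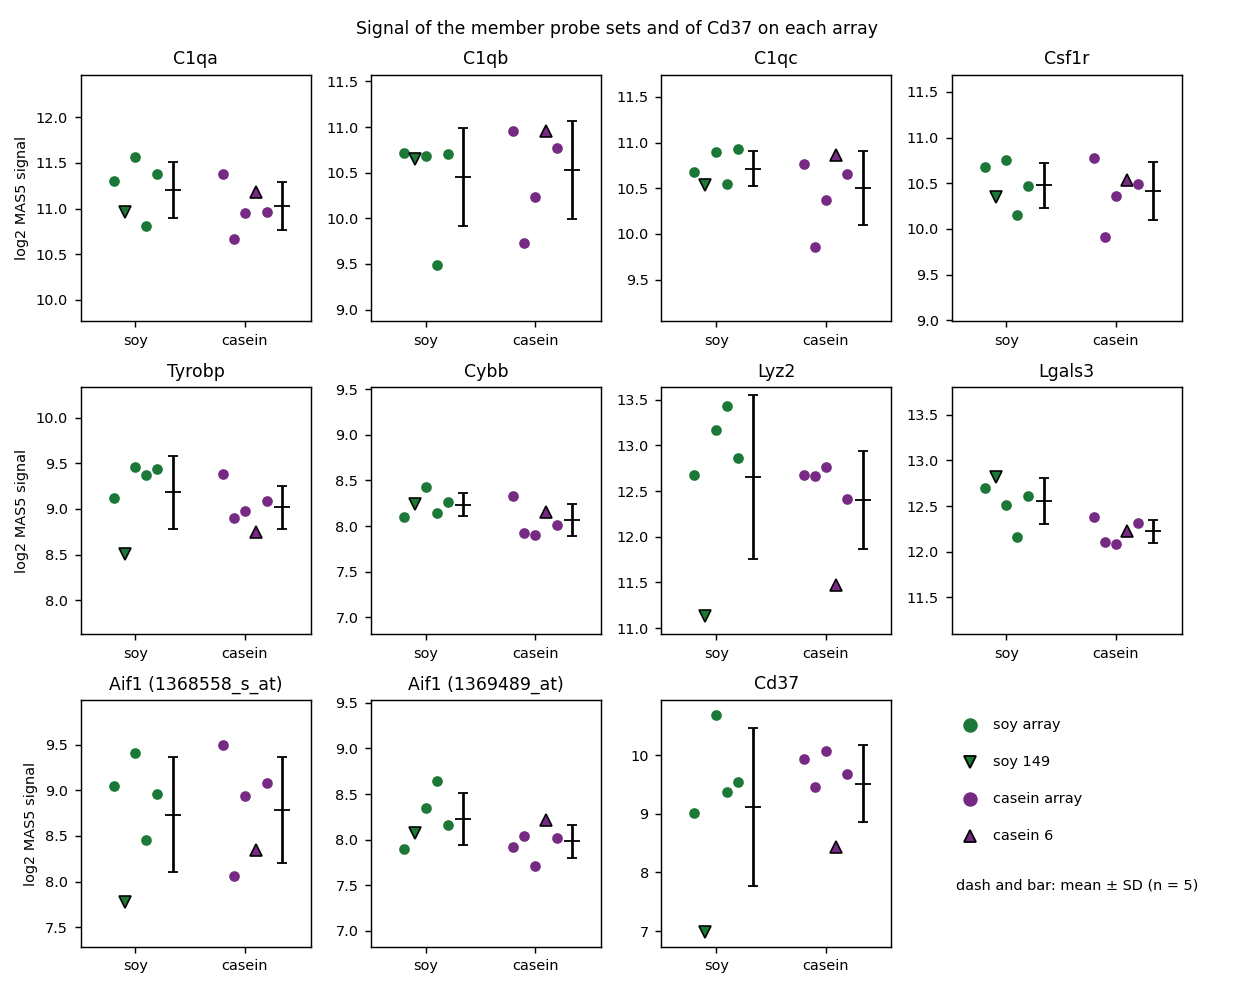
Log2 MAS5 signal of each member probe set and of Cd37 (y axis; all panels span the same log2 width except Cd37, which spans more) on the 5 soy and the 5 casein arrays, with the mean ± SD of each diet. Soy 149 and casein 6, drawn as triangles, had the lowest Cd37 and Lyz2 signals of the 10 arrays, while their C1q signals lay within the spread of the others.

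The C1q chains were expressed on every array, and the diets overlapped. C1qa, the A chain, was at 11.30, 10.96, 11.57, 10.81 and 11.38 on the soy arrays, against 11.18, 10.96, 11.38, 10.67 and 10.95 on the casein arrays. Soy 155 was the highest array and casein 18 the lowest, and both diets spanned most of the range. The difference was 0.17 ± 0.17 (SE, n = 5 per diet; 95% confidence interval -0.19 to 0.54), with an adjusted p = 0.99 in limma. It was 0.084 without soy 155, 0.085 without casein 18, 0.26 without casein 10 and 0.27 without soy 157.

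C1qb, the B chain, was at 10.72, 10.65, 10.68, 9.49 and 10.71 on the soy arrays, against 10.95, 10.77, 10.96, 9.73 and 10.24 on the casein arrays. Soy 157 was the lowest array, 1.16 below the next soy array, and casein 18 and casein 20 were also low, while the other 7 arrays lay between 10.65 and 10.96. The means were 10.45 ± 0.54 in soy and 10.53 ± 0.54 in casein (SD, n = 5 each). The difference was -0.08 ± 0.29 (SE, n = 5 per diet; 95% confidence interval -0.71 to 0.55), with an adjusted p = 0.9995 in limma. It was 0.16 without soy 157, 0.03 without casein 6 and 0.03 without casein 10, so its sign rested on single arrays.

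C1qc, the C chain, was at 10.68, 10.54, 10.89, 10.54 and 10.93 on the soy arrays, against 10.87, 10.66, 10.76, 9.86 and 10.37 on the casein arrays. The casein mean was 10.50, and every soy array was above it, as were casein 6, casein 7 and casein 10. The difference was 0.21 ± 0.18 (SE, n = 5 per diet; 95% confidence interval -0.18 to 0.60), with an adjusted p = 0.98 in limma, and it was 0.05 without casein 18, the lowest array. On soy 157, where C1qb was lowest of the 10 arrays, C1qc was at 10.54 and ranked within the other soy arrays, which lay between 10.54 and 10.93.

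Csf1r and Tyrobp encode a receptor and an adaptor. Csf1r, the receptor for CSF1 and IL-34, was at 10.68, 10.35, 10.76, 10.15 and 10.46 on the soy arrays, against 10.54, 10.49, 10.77, 9.91 and 10.36 on the casein arrays. Its highest arrays were casein 10 and soy 155 and its lowest were casein 18 and soy 157, the arrays on which C1qa was lowest too. The difference was 0.07 ± 0.16 (SE, n = 5 per diet; 95% confidence interval -0.29 to 0.42), with an adjusted p = 0.9995 in limma. Its sign turned to -0.06 without casein 18 and to -0.0043 without soy 155.

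Tyrobp, which encodes DAP12, the ITAM adaptor of TREM2 and other activating receptors, was at 9.12, 8.51, 9.46, 9.38 and 9.44 on the soy arrays, against 8.74, 9.08, 9.38, 8.91 and 8.97 on the casein arrays. Soy 149 and casein 6 were the lowest arrays, and soy 155 and soy 159 were the highest. The difference was 0.16 ± 0.19 (SE, n = 5 per diet; 95% confidence interval -0.25 to 0.57), with an adjusted p = 0.99 in limma, and it was 0.33 without soy 149 and 0.09 without soy 155.

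The remaining members are effectors and a cytoskeletal protein. Lgals3 encodes galectin-3, a beta-galactoside-binding lectin of macrophages that epithelial cells and other cells also make. It was at 12.69, 12.82, 12.51, 12.16 and 12.61 on the soy arrays, against 12.22, 12.32, 12.38, 12.11 and 12.08 on the casein arrays. The casein arrays lay between 12.08 and 12.38, and 4 of 5 soy arrays lay above all of them, while soy 157, at 12.16, lay among them. The means were 12.56 ± 0.25 in soy and 12.22 ± 0.13 in casein (SD, n = 5 each). The difference was 0.34 ± 0.12 (SE, n = 5 per diet; 95% confidence interval 0.07 to 0.61), a 1.26-fold higher signal in soy, with an unadjusted p of 0.019 and an adjusted p = 0.98 in limma, and so did not pass. It ran from 0.27 without soy 149 to 0.44 without soy 157 when 1 array was left out.

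Lyz2, lysozyme, the bacterial cell wall hydrolase of phagocytes, was at 12.68, 11.14, 13.17, 13.44 and 12.86 on the soy arrays, against 11.47, 12.42, 12.68, 12.67 and 12.77 on the casein arrays. Soy 149 and casein 6 were the lowest arrays, and soy 157 and soy 155 were the highest. The linear signal was 2252.5 on soy 149 and 2846.3 on casein 6, against 5467.5 to 11078.4 on the other 8 arrays, so the whole range was 4.92-fold, the widest of the member probe sets. The difference was 0.26 ± 0.39 (SE, n = 5 per diet; 95% confidence interval -0.60 to 1.12), with an adjusted p = 0.99 in limma. It was 0.64 without soy 149 and 0.02 without casein 6.

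Cybb, the catalytic subunit of the phagocyte NADPH oxidase, was at 8.10, 8.24, 8.43, 8.15 and 8.26 on the soy arrays, against 8.16, 8.01, 8.33, 7.92 and 7.91 on the casein arrays. It varied least of the member probe sets, with a 1.44-fold range over the 10 arrays, and each soy array exceeded 8.07, the mean in casein, as did casein 6 and casein 10. The difference was 0.17 ± 0.12 (SE, n = 5 per diet; 95% confidence interval -0.09 to 0.43), with an adjusted p = 0.98 in limma.

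Aif1 encodes IBA1, an actin-binding protein of macrophages and microglia. Its probe set 1368558_s_at was at 9.05, 7.78, 9.41, 8.46 and 8.96 on the soy arrays, against 8.34, 9.08, 9.49, 8.06 and 8.94 on the casein arrays. Soy 149 was the lowest array, followed by casein 18 and casein 6, and casein 10 and soy 155 were the highest. The difference was -0.05 ± 0.33 (SE, n = 5 per diet; 95% confidence interval -0.77 to 0.66), with an adjusted p = 0.9995 in limma, and its sign turned without casein 10 (0.13), casein 7 (0.02), soy 149 (0.19) or soy 157 (0.02). The other probe set, 1369489_at, was at 7.90, 8.07, 8.35, 8.64 and 8.16 on the soy arrays, against 8.21, 8.02, 7.92, 8.04 and 7.71 on the casein arrays, and its difference was 0.24 ± 0.15 (SE, n = 5 per diet; 95% confidence interval -0.09 to 0.58), with an adjusted p = 0.98 in limma. Its highest array was soy 157 and its lowest casein 20, and it was 0.14 without soy 157. Over the 10 arrays the Aif1 probe sets had a Pearson r of -0.19 with each other and did not give the same picture of the gene. The suffix _s_at marks a probe set whose probes can match more than 1 transcript.

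**Figure D2:**
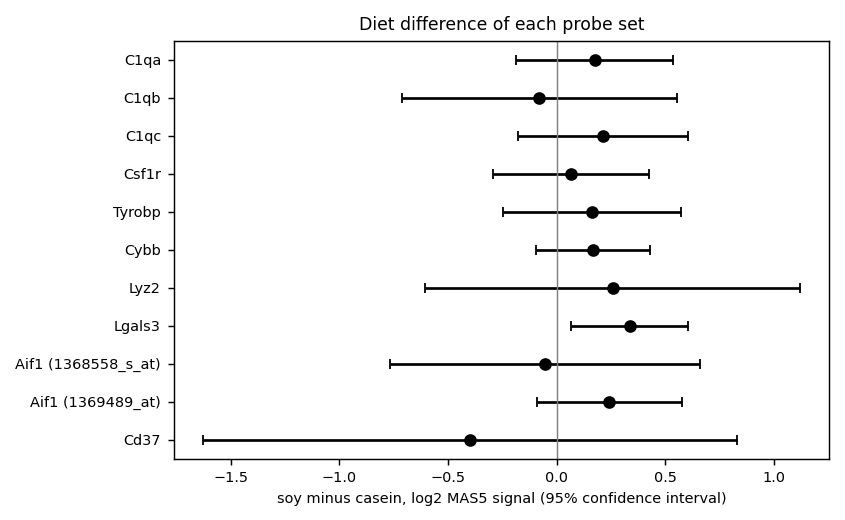
Soy minus casein difference in log2 MAS5 signal (x axis) for each member probe set and Cd37 (rows). Points are limma estimates over 5 soy and 5 casein arrays and bars are 95% confidence intervals. The interval of Lgals3, 0.07 to 0.61, lies above 0 before adjustment for 9520 probe sets, and those of the other rows include 0.

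The actin 3' to 5' signal ratio, a sign of RNA quality, was 1.41 to 1.57 on soy arrays and 1.22 to 1.55 on casein arrays. With it as a covariate the differences were 0.20 for C1qb, -0.02 for Lyz2 and 0.02 for Aif1 1368558_s_at, each of the opposite sign to the fit without it. They were 0.20 for Csf1r, 0.36 for C1qc, 0.44 for Lgals3 and -0.81 for Cd37, each farther from 0 than without it.

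The lymph node signal was lowest on soy 149 and casein 6, although by Cd37 casein 6 lay nearer to soy 147 than to soy 149. Cd37 was at 9.01, 6.98, 10.69, 9.36 and 9.54 on the soy arrays, against 8.43, 9.67, 9.93, 9.46 and 10.08 on the casein arrays. B and T cell genes were lower on soy 149 and casein 6 too. Cd79b, a chain of the B cell receptor complex, was at 4.32 on soy 149 and 3.41 on casein 6, against 8.65 to 9.78 on the other 8 arrays. Cd3e, a CD3 chain of the T cell receptor complex, was at 4.10 and 3.67, against 8.20 to 9.25. Both arrays were set apart for their low lymph node signal, so the count of such markers describes that choice and is no separate support. Of the 10 tested lymphocyte markers other than Cd37, 9 were lower on both of these arrays than on any other, against 15.8% of all probe sets tested. The exception was Cxcr5, a chemokine receptor of B cells, at 7.61 and 7.18, against 7.42 to 8.14. The summed signal of the list was 1157.9 on soy 149 and 1293.3 on casein 6, against 6761.4 to 13974.5 elsewhere, and no marker was at a signal of 1 or less on any array. Cd37 itself had a soy minus casein difference of -0.40, which was 0.14 without soy 149.

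Against this signal the members differed in their values on soy 149 and casein 6. Lyz2 and Tyrobp were lower on both soy 149 and casein 6 than on any of the other 8 arrays. These were 2 of the 9 genes, near the share of 15.8% among all probe sets tested. Lyz2 on soy 149 differed by -1.88 from the median of the other soy arrays, and on casein 6 by -1.20 from the median of the other casein arrays. For Tyrobp these differences were -0.90 and -0.28, and for Aif1 1368558_s_at -1.22 and -0.67, although casein 18 was lower than casein 6 for that probe set. The other Aif1 probe set, 1369489_at, differed by -0.19 and 0.24 and lay within the range of the other 8 arrays. Over all probe sets the medians of the same differences were -0.04 and -0.09.

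The C1q chains were not low on these arrays in the same way. On soy 149 the differences from the other soy arrays were -0.38 for C1qa, -0.04 for C1qb and -0.25 for C1qc. On casein 6 the differences from the other casein arrays were 0.23, 0.45 and 0.35, all above 0. Csf1r differed by -0.22 on soy 149 and by 0.11 on casein 6, and Cybb by 0.03 and 0.19. Lgals3 was at its highest of the 10 arrays on soy 149, at 12.82, and differed by 0.25 there and by 0.01 on casein 6. All C1q, Csf1r and Cybb values of both arrays lay within the range of the other 8.

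**Figure D3:**
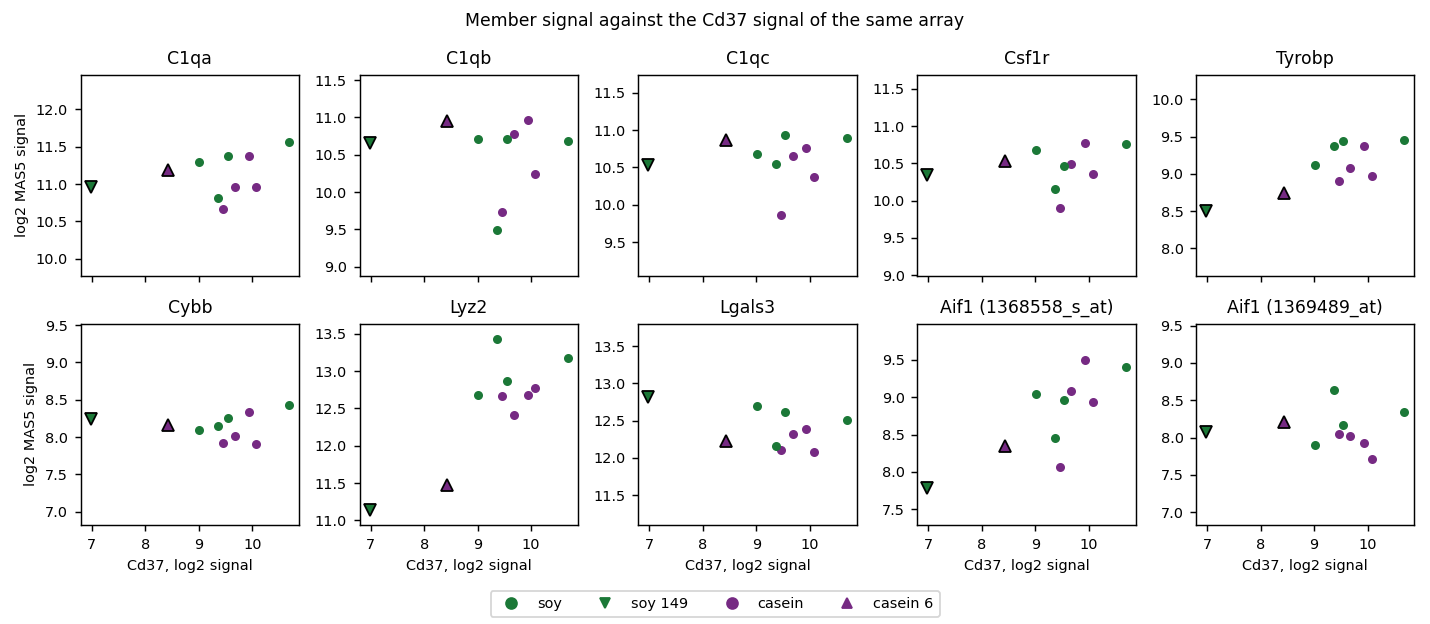
Log2 MAS5 signal of each member probe set (y axis, same width in every panel) against the log2 signal of Cd37 on the same array (x axis) for 5 soy and 5 casein arrays. Lyz2 and Tyrobp lie lowest on soy 149 and casein 6, the arrays with the lowest Cd37, while C1qa, C1qb, C1qc, Csf1r and Cybb lie within the range of the other 8 arrays there.

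The slope on Cd37 was fitted in limma with diet as a covariate, first over the 8 arrays other than soy 149 and casein 6. No member passed, and 0% of 9519 probe sets did (smallest adjusted p = 0.54), while 3.24% had a positive slope and 3.36% a negative one with an unadjusted p under 0.05, which none of the 10 member probe sets had. Slopes per log2 unit of Cd37 were 0.31 ± 0.17 for C1qa, 0.19 ± 0.16 for Lyz2, 0.17 ± 0.13 for Tyrobp, 0.50 ± 0.27 for Aif1 1368558_s_at and -0.01 ± 0.14 for Lgals3 (SE, n = 8). They were 0.29 ± 0.34 for C1qb, 0.23 ± 0.19 for C1qc, 0.25 ± 0.19 for Csf1r, 0.20 ± 0.14 for Cybb and 0.06 ± 0.18 for Aif1 1369489_at. Single arrays moved these slopes: with 1 of the 8 left out they ran from 0.23 to 0.47 for C1qa, 0.11 to 0.63 for C1qb, 0.11 to 0.65 for C1qc and 0.15 to 0.47 for Csf1r. They ran from 0.09 to 0.42 for Tyrobp, 0.02 to 0.40 for Lyz2 and 0.32 to 0.80 for Aif1 1368558_s_at, and the upper end of each of these 7 ranges came from leaving out soy 147 or soy 155. With the mean of the lymphocyte markers in place of Cd37, over the same 8 arrays, the slope of Lyz2 was 0.71 ± 0.19 (SE; unadjusted p = 0.0039, adjusted p = 0.37 in limma) and that of Tyrobp was 0.34 ± 0.21 (adjusted p = 0.66 in limma). On that mean the slopes were 0.45 for Aif1 1369489_at, 0.29 for Aif1 1368558_s_at and 0.26 for Cybb. They were 0.09 for C1qa, 0.03 for Csf1r, -0.34 for Lgals3 and -0.42 for C1qb. With quantile normalization the slope of Lyz2 on Cd37 was 0.26 ± 0.09 (SE; unadjusted p = 0.022, adjusted p = 0.69 in limma). An exact two-sided permutation test over these 8 arrays, with no diet term, gave Pearson r = 0.43 (p = 0.30, adjusted p = 0.89 over all probe sets) and Spearman rho = 0.45 (p = 0.27, adjusted p = 0.99) for C1qa, and r = 0.19 (p = 0.64, adjusted p = 0.96) and rho = 0.17 (p = 0.70, adjusted p = 0.99) for Lyz2. Over the member probe sets this r ran from -0.11 for Lgals3 to 0.52 for Aif1 1368558_s_at (adjusted p = 0.88 in the same test), with Cybb at 0.45. Without soy 155 and soy 147, the arrays farthest from the median of Cd37, r was 0.38 for C1qa and -0.46 for Lyz2.

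Over all 10 arrays the fit rests on soy 149 and casein 6, and there 3 of 10 member probe sets had a positive slope that passed, against 4.23% of all probe sets tested, and none had a negative one, against 0.767%. Lyz2 rose by 0.63 ± 0.10 per log2 unit of Cd37 (SE, n = 10; adjusted p = 0.0068 in limma), Tyrobp by 0.28 ± 0.06 (adjusted p = 0.022 in limma) and Aif1 1368558_s_at by 0.45 ± 0.11 (adjusted p = 0.046 in limma). The slopes were 0.11 ± 0.08 for C1qa, -0.07 ± 0.16 for C1qb, 0.05 ± 0.10 for C1qc, 0.07 ± 0.09 for Csf1r, 0.03 ± 0.06 for Cybb, -0.08 ± 0.06 for Lgals3 and 0.02 ± 0.08 for Aif1 1369489_at, with adjusted p from 0.46 to 0.90 in limma. Without soy 149 no probe set passed, and the slopes were 0.49 for Lyz2, 0.21 for Tyrobp and 0.46 for Aif1 1368558_s_at. Without casein 6 Lyz2 (0.59, adjusted p = 0.016) and Tyrobp (0.28, adjusted p = 0.047) passed in limma and Aif1 1368558_s_at (0.46, adjusted p = 0.091) did not. Differences between the slopes of members were not tested.

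Soy 149 and casein 6 had luminal epithelial marker means of 7.59 and 6.67, against 6.65 to 10.37 on the other arrays. Their adipocyte marker means were 11.38, the highest, and 10.54, against 10.16 to 10.97. Both arrays were also rich in muscle, with muscle marker means of 13.39 and 13.61. Soy 157 and soy 147 were rich in muscle too, at 13.88 and 12.39, and had lymphocyte marker means of 9.73 and 8.92, against 6.11 on soy 149 and 6.18 on casein 6. On soy 157 and soy 147 Lyz2 was at 13.44 and 12.68 and Tyrobp at 9.38 and 9.12, within or above the range of the casein arrays other than casein 6. Among the soy arrays, soy 147 was the lowest after soy 149 for both genes. Soy 155 and soy 159, with muscle marker means of 7.94 and 5.98, were at 13.17 and 12.86 for Lyz2. They were at 9.46 and 9.44 for Tyrobp. The relation of these genes to muscle content was not tested.

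Markers of macrophages and monocytes showed the same mixture. Of 34 genes listed, 16 were tested, and 4 of these, named here after their values were seen, had a slope on Cd37 over all 10 arrays that passed in limma: Irf8, a transcription factor of monocytes, dendritic and B cells, with 1.07 (adjusted p = 0.008), Mpeg1, the pore-forming perforin-2, with 0.44 (adjusted p = 0.018), the cysteine protease Ctss with 0.22 (adjusted p = 0.030) and the chemokine Ccl2 with 0.29 (adjusted p = 0.031). Positive slopes that passed made up 4.23% of all probe sets tested. Of the 16 markers, 4 (Irf8, Mpeg1, Ctss and Apoe) were lower on both soy 149 and casein 6 than elsewhere, against 15.8% of all probe sets. Irf8 was at 6.95 on soy 149 and 7.39 on casein 6, against 9.58 to 10.48 on the other arrays. On the other side, Folr2, a folate receptor of resident macrophages, was at 10.06 and 10.28 on these arrays, against 9.32 to 9.97 elsewhere, and Clec10a, a galactose-type lectin of macrophages and dendritic cells, was at 9.73 and 9.53, against 8.21 to 9.31. Both of these genes were thus highest there, as were 6% of all probe sets. Cd68, a lysosomal glycoprotein of macrophages, was at 9.42 and 9.61, within the range of 9.14 to 10.03. The summed signal of the list was 21480.3 on soy 149 and 21523.9 on casein 6, against 22544.6 to 27116.5 on the other arrays. Among pan-leukocyte genes 7 of 8 had a slope over all 10 arrays that passed, and among lymphocyte markers other than Cd37 9 of 10.

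By diet, 10 macrophage and monocyte markers were higher and 6 lower in soy, none passed, and the median difference was 0.07. The smallest p belonged to Maf, a transcription factor of resident macrophages, at 0.26 ± 0.10 (SE; adjusted p = 0.98 in limma), which was 9.93, 9.88, 10.08, 9.95 and 10.22 on the soy arrays, against 9.92, 9.69, 9.92, 9.59 and 9.65 on the casein arrays. Next came the protease Lgmn at -0.20 ± 0.10, the lipid carrier Apoe at 0.18 ± 0.15 and Gpnmb, a glycoprotein of lipid-laden macrophages, at 0.33 ± 0.29. Gpnmb was at 11.14 on soy 147 and between 9.27 and 9.78 on the other 9 arrays.

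**Figure D4:**
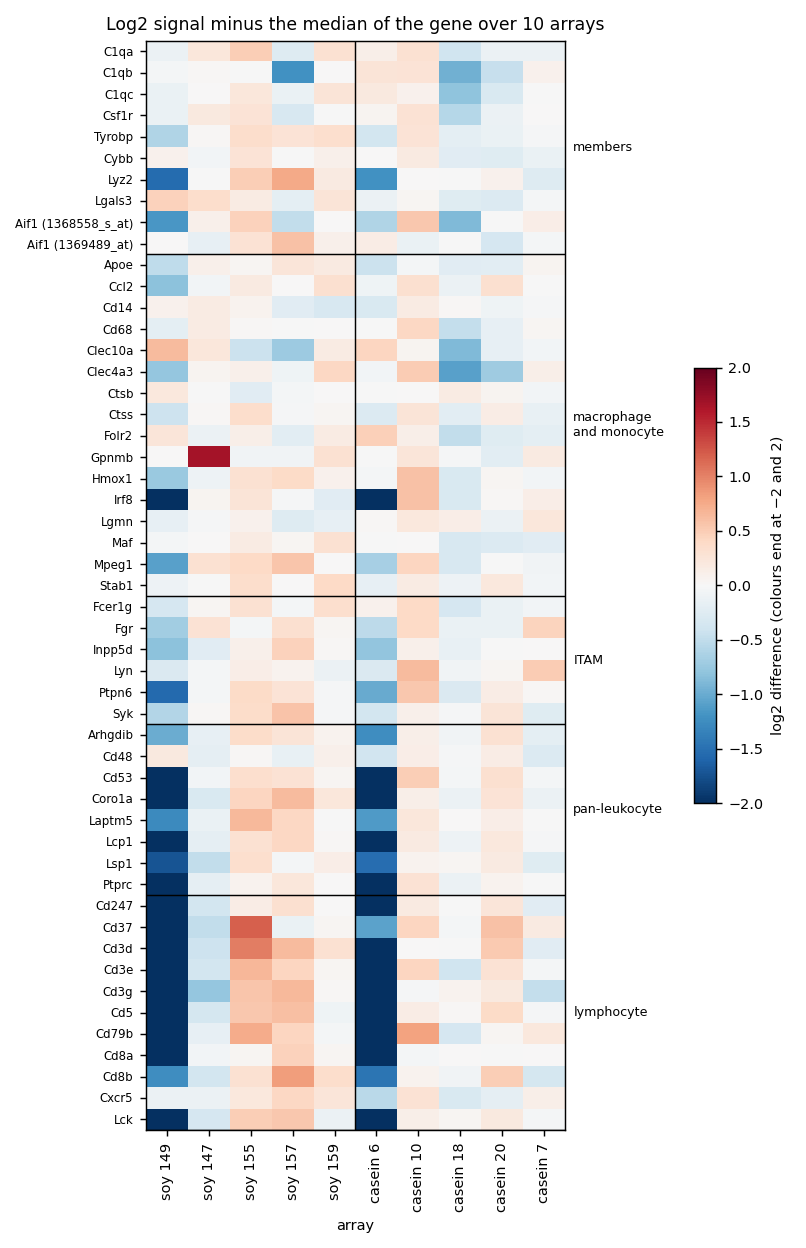
Log2 MAS5 signal of each gene minus its median over the 10 arrays (colour, ending at -2 and 2), for the member probe sets and the tested genes of 4 lists (rows), on 5 soy and 5 casein arrays (columns). Most lymphocyte and pan-leukocyte rows are deep blue on soy 149 and casein 6, with Lyz2, Irf8 and Mpeg1 also low, while the C1q, Csf1r, Cybb, Folr2 and Clec10a rows are not.

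No other complement gene passed the test of diet. Of 39 genes listed, 19 were tested, 13 higher and 6 lower in soy, with a median of 0.03, and 0 passed in limma. The initiating proteases that bind C1q were nearly level, with C1r at 0.01 ± 0.15 and C1s at -0.02 ± 0.17 (SE). The smallest p belonged to Masp1, a protease of the lectin pathway, at 0.50 ± 0.17 (SE, unadjusted p = 0.012, adjusted p = 0.98 in limma). Cfp, properdin, was at 0.24 ± 0.13, C3, the central component, at 0.42 ± 0.23 and Cfd, the adipocyte protease adipsin, at 0.25 ± 0.17. C1s was highest on soy 149 and casein 6, at 11.35 and 11.49, against 10.59 to 11.19 on the other arrays, and C3 was lowest there, at 6.99 and 6.94, against 7.25 to 8.17. Of the 19 genes, 4 were lowest and 2 highest on both of these arrays, against 15.8% and 6% of all probe sets tested.

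Partners of the other members gave 0 calls by diet in limma. The NADPH oxidase partner Cyba was at 0.04 ± 0.16 and Rac1 at -0.06 ± 0.09 (SE), and the median of 3 tested partners was -0.01. For Rac2 the difference was -0.01 ± 0.58 (SE). Its signal was 9.20 on soy 149 and 9.33 on casein 6, against 11.08 to 12.05 on the other arrays. Among 6 tested genes of ITAM and Fc receptor signalling, with a median of 0.02, the kinases Lyn and Syk were at -0.21 ± 0.17 and 0.13 ± 0.21. Of these 6 genes, 5 were lower on both soy 149 and casein 6 than on the other arrays, the exception being Fcer1g. Among all probe sets tested 15.8% were. Csf1, the ligand of Csf1r, was at 0.36 ± 0.22 and the transcription factor Cebpb at -0.33 ± 0.14, in a list of 5 with a median of 0.08. Among 13 galectin and lysosomal genes, with a median of -0.02, Lgals8, another galectin, was at -0.31 ± 0.16 and Ctsd at 0.19 ± 0.10.

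Lists of other cell types likewise gave 0 calls by diet. The median differences were -0.02 over 8 pan-leukocyte genes, 0.12 over 11 lymphocyte genes, 0.0010 over 5 dendritic cell genes, 0.03 over 6 mast cell genes, 0.02 over 7 adipocyte genes, 0.15 over 6 blood endothelial genes, 0.21 over 4 lymphatic endothelial genes and 0.20 over 3 red blood cell genes. They were -0.27 over 6 luminal and -0.12 over 2 basal epithelial genes and 2.36 over 10 skeletal muscle genes. Muscle marker means were 12.39 to 13.88 on soy 147, soy 149 and soy 157 and 13.61 on casein 6. They were 5.98 to 8.02 on the other arrays, so muscle content was not balanced between the diets. Of the neutrophil genes only S100a9 was tested, at -0.40 ± 0.95 (SE), with 3.79 on soy 149 and 6.17 on casein 6, against 7.30 to 9.80 on the other arrays. Their part in the members' diet differences was not tested, apart from the fit with Cd37 as a covariate. In that fit the difference was 0.13 ± 0.22 for Aif1 1368558_s_at, 0.51 ± 0.19 for Lyz2, 0.27 ± 0.11 for Tyrobp and 0.30 ± 0.12 for Lgals3 (SE). The unadjusted p in limma was 0.020 for Lyz2, 0.031 for Tyrobp and 0.027 for Lgals3, each with an adjusted p = 0.71. Of 9519 probe sets, 663 had an unadjusted p under 0.05 in that fit.

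Likeness over the arrays was measured by Pearson r across the 10 arrays, as a description with no test. When 9519 other probe sets were ranked by their likeness to Csf1r, C1qa ranked 3 (r = 0.90), C1qb ranked 7 (r = 0.83) and C1qc ranked 14 (r = 0.82). C1qa and C1qc had an r of 0.83, C1qa and C1qb of 0.73, and C1qb and C1qc of 0.71. Lyz2 was unlike them, with r of 0.13 to C1qa, -0.47 to C1qb, -0.04 to C1qc and -0.02 to Csf1r, and closer to Tyrobp (r = 0.87).

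Without soy 149 and casein 6 the order changed for Aif1. Over the other 8 arrays the probe set most like Aif1 1368558_s_at, out of 9519, was Csf1r, at r = 0.97, and its r to C1qb was 0.88, against 0.74 and 0.42 over all 10 arrays. The probe set most like Cybb was then Tyrobp, at r = 0.93, against 0.42 over all 10. Lyz2 had an r of -0.12 to Csf1r and -0.50 to C1qb over the 8 arrays, of 0.60 to Tyrobp, against 0.87 over all 10, and of 0.82 to Aif1 1369489_at, against 0.27 over all 10.

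Of 8139 probe sets of other named genes, those most like the mean of the C1q chains over the 10 arrays were Ctsa, the lysosomal cathepsin A (r = 0.89), Ercc8, a DNA repair factor (r = 0.89), Cited2, a transcriptional coregulator (r = 0.88), Dab2, an endocytic adaptor (r = 0.88), and Fcna, ficolin A, a lectin pathway recognition protein (r = 0.88). Over the 8 arrays their r was 0.88 to 0.95. Those most like the mean of the other members were Srsf6, a splicing factor (r = 0.94), Mepce (r = 0.93), RT1-DMa, an MHC class II peptide loading chain (r = 0.93), Tmem179b (r = 0.93) and Iglc1, an immunoglobulin light chain constant region (r = 0.92). Over the 8 arrays, r to that mean ran from 0.86 for RT1-DMa to 0.93 for Tmem179b among these genes. The mean of the other members includes Lyz2 and Tyrobp, which were lowest on soy 149 and casein 6.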

How the data were processed

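The 10 arrays, 5 soy and 5 casein, were grouped by the diet in their labels. The deposited table holds 1 MAS5 intensity per probe set and array, made with MAS5 per the submitters' processing notes (version not given in the sources used here). The mean without the top and bottom 2% was 500.1 on every array, so the deposited intensities share a scale. Of 15923 probe sets, 57 controls were left out, and of the other 15866 the platform annotation gave 12783 to 1 gene, 312 to several and 2771 to none. Intensities under 1 were set to 1 and put on the log2 scale, and 9520 probe sets whose mean was at or above the 40th percentile (7.47) were tested with limma 3.58.1 in R 4.3.3 (lmFit, eBayes with an intensity trend, two-sided, Benjamini-Hochberg adjustment over all tested, called under 0.05). The fits were tested on simulated data.

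Soy 149 and casein 6 were set apart for their low lymph node signal. The slope on Cd37 had diet as a covariate and used the other 8 arrays. Exact permutation tests had no diet term and used all 40320 orders of these arrays. The members and the 18 gene lists were chosen with earlier results of these data known. Named are all members, the genes of each list with the smallest diet p (4 for macrophage markers and complement, 2 for the others, not all printed) and the 5 genes most like each member mean. C1r, C1s, Cd68, Folr2, Clec10a, Fcer1g, Rac2, Cd79b, Cd3e and the macrophage markers named for their slope were chosen after their values were seen. A gene with several probe sets is represented in lists by the one with the highest mean. Alternatives were other scalings, offsets, filters, variance models and covariates, arrays left out, and, chosen after seeing the data, slopes over all arrays but casein 6 or but soy 149. The number of arrays limits the precision.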

Additional observations from a re-analysis of the deposited data

Results flagged for a closer look

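In 22 groups of 5 arrays (each member probe set and Cd37 in each diet), the highest and lowest array were set against the others by Dixon's ratio, which is past its limit of 0.71 by chance in about 1 of 20 groups, and 2 groups were past it. C1qb on soy 157 was at 9.49, against 10.65 on the nearest soy array, a gap of 0.949 of the range of the group. Lyz2 on casein 6 was at 11.47, against 12.42 on the nearest casein array, a gap of 0.728 of the range.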

How the results depend on the processing

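The diet comparison gave 0 calls under every alternative run, with 272 to 843 probe sets at an unadjusted p under 0.05. The Cd37 slope gave 0 calls over the 8 arrays under other scalings, filters, models and left-out arrays, but 476 over all 10 arrays, 288 over all but casein 6 and 0 over all but soy 149. Of the single member and Cd37 values under alternatives, 223 diet differences kept their sign and side of the threshold and 16 turned sign. For slopes, 134 kept both, 11 turned sign and 5 passed the threshold only there. With the actin ratio as a covariate the diet difference was 0.20 for C1qb, 0.019 for Aif1 1368558_s_at and -0.016 for Lyz2, and array weights gave 0.021 for C1qb. For Aif1 1368558_s_at it was 0.13 with Cd37 as a covariate and 0.075 without soy 149 and casein 6. Leaving out 1 array gave diet differences of -0.28 to 0.16 for C1qb, -0.062 to 0.16 for Csf1r, -0.23 to 0.19 for Aif1 1368558_s_at and -0.79 to 0.14 for Cd37. It gave slopes of -0.11 to 0.12 for Lgals3 and -0.16 to 0.15 for Aif1 1369489_at. The C1qb slope was -0.42 on the lymphocyte marker mean, -0.065 over all 10 arrays, -0.0018 over all but casein 6 and -0.013 over all but soy 149. Over all but soy 149 the slope was -0.021 for C1qc and -0.061 for Aif1 1369489_at. The cause of these changes was not tested. Cybb and Aif1 1369489_at were below the filter at the 60th percentile and have no value there. No paired analysis was possible because soy and casein arrays share no number in their labels. Dim probe sets limit the rest: Aif1 1369489_at and Cybb lay nearest to the filter.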
